A study of Mus musculus with 7 samples.

Results

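The genes of the translation initiation and elongation factors were examined in TA (tibialis anterior) muscle, a fast-twitch muscle of the lower leg, by RNA sequencing. The group was every gene of the expression table whose symbol starts with Eif or Eef followed by a digit, which gave 61 of the 12239 genes. The libraries came from male mice of 5 to 6 months, 4 of them FVBN wild type (WT) and 3 C2-/-, a knockout of *Mybpc2*, the gene of fast myosin-binding protein C, on the FVBN background. In the C2-/- allele, exons 2 to 22 of *Mybpc2* are replaced by a Neo cassette that lies between LoxP sites. No further allele or treatment is given for either group. All the mice are young adults, and the C2-/- mice are of 1 targeted line. Each value is the log2 of the reads of a gene per 1e6 reads of its library (CPM) after TMM scaling (trimmed mean of M values, which scales libraries to each other), and a log2 change is the C2-/- mean minus the WT mean, given with its standard error (SE) in the limma fit.

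Translation initiation brings a small ribosomal subunit with the initiator tRNA, carried by eIF2, to the cap of an mRNA, where the eIF4F complex (eIF4E, eIF4G and the helicase eIF4A) and eIF3 recruit it, and scanning factors find the start codon. In elongation, eEF1A brings each aminoacyl-tRNA to the ribosome, the eEF1B subunits recharge eEF1A with GTP, and eEF2 moves the ribosome along by a codon. Skeletal muscle is known for an isoform switch of eEF1A after birth, from the widely expressed *Eef1a1* to *Eef1a2*. Its rate of protein synthesis is regulated at eIF2B, at the 4E-binding proteins and at eEF2.

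The 7 libraries differed in depth. WT replicates 1 to 3 held 14929214 to 15464499 reads in the table, and WT replicate 4 and the 3 C2-/- libraries held 2613277 to 4917936. The 3 deepest libraries were all WT, so in the fit over all 7 libraries depth and genotype are partly confounded, and only WT replicate 4 lay within the depth range of C2-/-. *Mybpc2* had values of 12.41 to 12.85 in WT and of -0.47 to 1.67 (3 to 8 reads) in C2-/-, as the labels give. Of 7 muscle fibre markers, 4 fell, with a summed level of 178600 to 208600 CPM in WT and 94770 to 111700 in C2-/-, and all 4 fibroblast markers rose, from 339 to 521 CPM to between 1249 and 1425 CPM. The 4 macrophage, 3 endothelial and 2 measured adipocyte markers did not pass the test in either direction, 1 of 2 satellite cell markers rose (*Pax7* was at 0 reads in at least 1 library), 1 of 3 Schwann cell markers fell, and the only measured erythroid marker fell. The part of cell makeup in the values that follow was not tested, and in whole muscle fewer cells of a type and less RNA per cell cannot be told apart.

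The 61 genes together held 1.03 to 1.16% of the reads of the WT libraries and 0.967 to 0.991% of those of the C2-/- libraries. No member was at 0 reads in any library, and the lowest count was 4 reads. A count of 3 reads, the limit that a count of 0 allows, stands for 0.195 to 1.12 CPM depending on the library, and covers counting error only. The labels number the replicates but do not say more of their source, so p-values measure the spread between these samples.

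The change of each member was then read from the fit over all genes. A gene was past the threshold at a limma p adjusted by Benjamini-Hochberg over the 12239 genes under 0.05 with a fold change above 1.5, which is 0.585 on the log2 scale. Of the 61 members, 14 rose and 20 fell in C2-/-, and 27 were not past the threshold. These 34 are 55.7% of the members (23.0% higher and 32.8% lower), where 45.2% of all genes were past the threshold (20.2% higher and 25.0% lower), and the difference was not tested. The C2-/- values lay wholly above the WT values in 14 members and wholly below in 20 (again 55.7%). Groups did not overlap in 49.3% of all genes. These are not the same members as those past the threshold: groups did not overlap in 10 of the 14 that rose and in 18 of the 20 that fell. The median log2 change was -0.24 over the members and -0.14 over all genes, and each change below is to be read against that shift of the table. With each library centred on its median, which moved the median of all genes to 0.02, 17 members were higher and 15 lower (53.1% higher, compared with 41.2% as deposited).

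**Figure D1:**
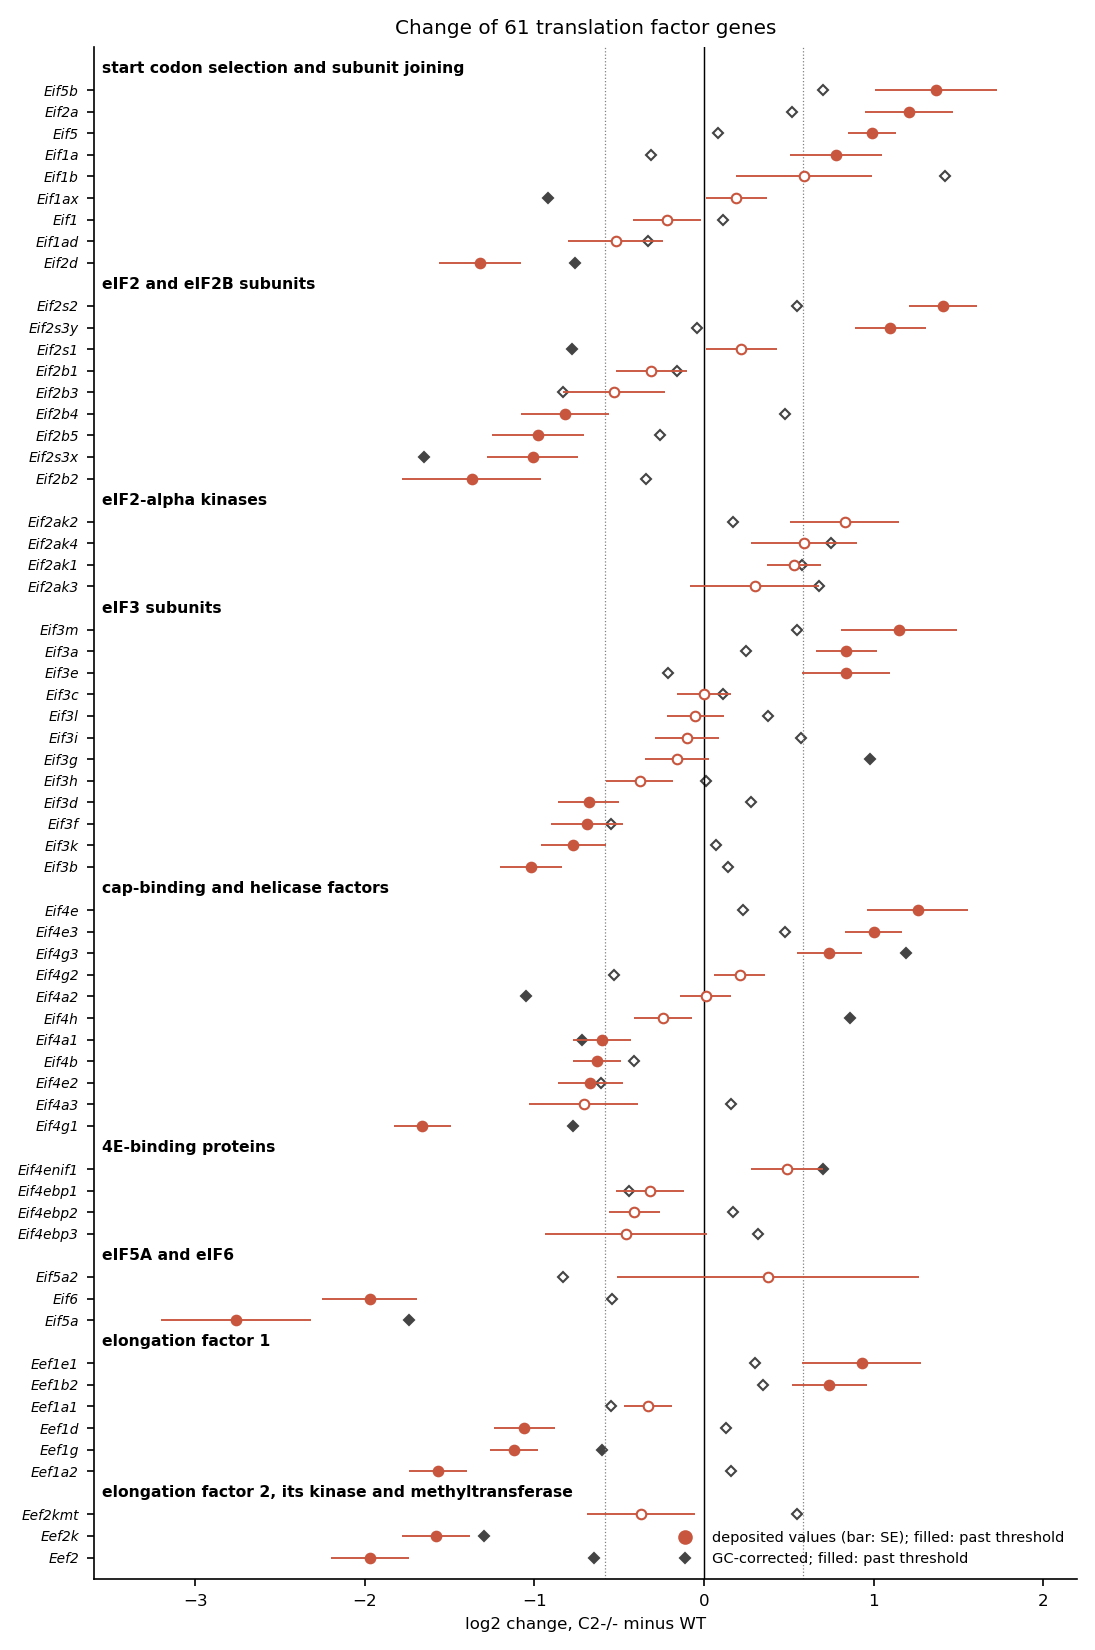
Log2 change (C2-/- minus WT) of the 61 genes by role. Circles are the deposited values with the SE of limma's model, diamonds the values after correction for GC content, filled symbols are past the threshold and dotted lines mark a fold change of 1.5 either way. *Eif5a*, *Eef2* and *Eif6* lie farthest to the left, and 4 diamonds are filled on the right and 11 on the left.

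The direction of change followed the GC content of the transcripts. The 14 members that rose had transcripts of 39.5 to 51.7% GC (median 43.7%), the 20 that fell 44.1 to 60.6% (median 54.0%), and the other 27 had a median of 50.1%, compared with 50.2% for all genes. Spearman's rho between change and GC content was -0.72 across the 61 members and -0.68 across 12181 genes, as a description of values from the same 7 libraries. A difference of the same kind was present within WT. WT replicate 4 lay above the mean of the other 3 WT libraries in 12 of the 14 members that rose and in 2 of the 20 that fell. Over all genes it did so in 68.7% of those that rose and in 17.6% of those that fell, so the difference is one of the whole table. The difference of WT replicate 4 from the other WT libraries had a rho of -0.47 with GC content across the members (-0.36 across all genes). The part of GC content in the changes was not tested beyond the correction that follows.

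**Figure D2:**
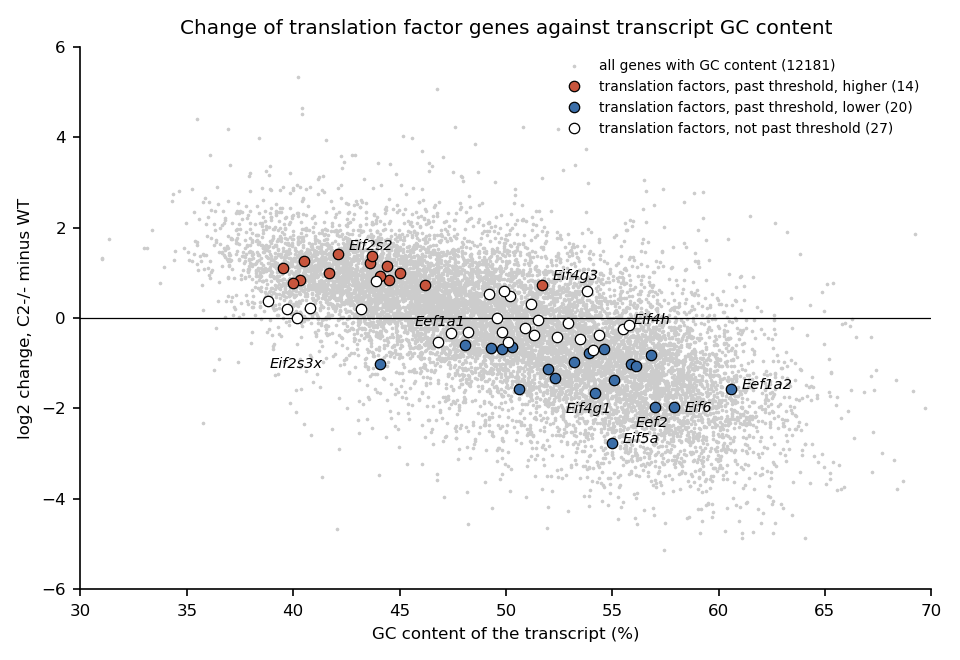
Log2 change (C2-/- minus WT) against the GC content of the transcript in percent, with all genes in grey (4, among them *Mybpc2*, lie outside the axes) and the 61 translation factor genes as circles (red rose, blue fell, white not past the threshold). The red circles lie at 39.5 to 51.7% GC and the blue ones at 44.1 to 60.6%, within the slope of the grey cloud. *Eif2s3x* lies on the lower side of the cloud and *Eif4g3* near its upper side.

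Each comparison was therefore repeated with the curve of log2 value against GC content of each library replaced by the mean curve of the 7 libraries (GC-corrected values). This takes out any change that follows GC content, whatever its source. After the correction 4 members were higher and 11 lower (24.6%), where 20.6% of all genes were past the threshold. Of these 15 members, 9 were past it in the same direction before the correction, 6 were past it only afterwards, and 0 were past it in opposite directions. The change of 24 members had the opposite sign after the correction, 9 of them past the threshold before it. In a depth-matched comparison of the 3 C2-/- libraries with WT replicate 4 alone, in which the lone WT library is assumed to vary like the C2-/- libraries, 1 member was higher and 7 were lower (13.1%, where 4.53% of all genes were past the threshold), and 11 members had an unadjusted p under 0.05. This comparison uses libraries of the full fit (the 3 C2-/- libraries and WT replicate 4), so the fits are not independent. In all 3 fits 6 members were past the threshold, each of them lower: *Eef2*, *Eef2k*, *Eef1g*, *Eif4g1*, *Eif5a* and *Eif2s3x*, of which *Eef1g* and *Eif2s3x* are named here after their values were seen.

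The stretch of 250 bases before an annotated start is shown for 5 genes of the main machinery that differ in their change, as background to the levels below. They are *Eef1a1* and *Eef1a2*, the paralogs of the isoform switch, *Eef2* and *Eif4g1*, which fell in all 3 fits, and *Eif2s2*, which had the largest rise. The sequences are from RefSeq (GRCm38.p6), written from 5′ to 3′ on the strand of the gene, with capitals for matches to 6 motifs, each searched on both strands. These were the TATA box (TATAAA), the GC box (GGGCGG), the CCAAT box, the E-box with the letters CACGTG, the E-box with the letters CAGCTG and the cAMP response element, or CRE (TGACGTCA), and no motif lies within another. They lie at chr9:78481725-78481974 (minus strand, *Eef1a1*), chr2:181157016-181157265 (minus, *Eef1a2*), chr10:81176381-81176630 (plus, *Eef2*), chr16:20672477-20672726 (plus, *Eif4g1*) and chr2:154892907-154893156 (minus, *Eif2s2*). Each window ends at the base before the gene as annotated, except that of *Eif4g1*, which belongs to a start inside the gene, so that its last 7 bases lie within it.
Eef1a1: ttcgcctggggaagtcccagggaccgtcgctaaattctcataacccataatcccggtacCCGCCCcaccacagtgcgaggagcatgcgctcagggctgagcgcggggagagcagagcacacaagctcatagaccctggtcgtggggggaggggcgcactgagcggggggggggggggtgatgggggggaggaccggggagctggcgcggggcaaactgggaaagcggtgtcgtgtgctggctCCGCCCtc
Eef1a2: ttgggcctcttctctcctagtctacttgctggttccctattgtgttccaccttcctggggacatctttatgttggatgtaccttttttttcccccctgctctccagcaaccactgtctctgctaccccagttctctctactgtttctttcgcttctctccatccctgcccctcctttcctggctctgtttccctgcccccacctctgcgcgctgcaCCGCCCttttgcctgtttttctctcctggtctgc
Eef2: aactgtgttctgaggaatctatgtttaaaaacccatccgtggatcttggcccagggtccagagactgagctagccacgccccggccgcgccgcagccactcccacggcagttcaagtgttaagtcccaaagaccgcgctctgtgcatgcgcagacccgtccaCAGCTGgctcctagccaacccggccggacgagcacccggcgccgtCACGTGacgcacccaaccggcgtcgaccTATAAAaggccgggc
Eif4g1: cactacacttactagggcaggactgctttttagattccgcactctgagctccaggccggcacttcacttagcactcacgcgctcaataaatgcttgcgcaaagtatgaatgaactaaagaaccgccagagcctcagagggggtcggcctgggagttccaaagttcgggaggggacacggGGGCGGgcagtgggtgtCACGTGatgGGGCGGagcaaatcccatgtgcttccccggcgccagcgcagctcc
Eif2s2: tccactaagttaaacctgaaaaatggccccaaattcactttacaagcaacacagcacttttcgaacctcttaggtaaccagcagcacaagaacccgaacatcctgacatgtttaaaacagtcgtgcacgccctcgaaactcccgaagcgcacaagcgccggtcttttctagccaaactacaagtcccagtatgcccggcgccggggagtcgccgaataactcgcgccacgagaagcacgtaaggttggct

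The GC box matched 2 times in the window of *Eef1a1*, 1 time in that of *Eef1a2* and 2 times in that of *Eif4g1*. *Eef2* had 1 match to the TATA box and 1 to each E-box, *Eif4g1* 1 match to the CACGTG E-box, and *Eif2s2* none to any of the 6. The 250-base windows of *Eef1a2* and *Eef1a1* had 54.0% and 68.0% GC, in the opposite order to their transcripts (60.6% and 47.4%). Windows were found for 49 of the 61 members, 64 in all because a gene can have more than 1 start, and such windows may overlap. The GC box was in 67.2% of the members' windows and in 32.7% of 32851 windows of all genes, and their median GC content was 61.2% and 52.4%. CACGTG was in 20.3% of the members' windows and in 6.02% of all. The CRE was in 0 of the members' windows and 1.55% of all, the TATA box in 7.81% and 12.4%, the CCAAT box in 23.4% and 33.8%, and the CAGCTG E-box in 4.69% and 13.0%. A match describes the letters only.

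The 6 eEF1 genes were measured next. *Eef1a2*, *Eef1d* and *Eef1g* fell, *Eef1b2* and *Eef1e1* rose and *Eef1a1* was not past the threshold. *Eef1a2*, the eEF1A of mature muscle (chromosome 2, 181141758 to 181157015), had values of 10.52, 10.60, 10.61 and 10.41 in WT replicates 1 to 4 and of 9.26, 8.77 and 8.85 in C2-/- replicates 1 to 3. Every C2-/- value was more than 1 log2 unit below every WT value, and WT replicate 4 lay near the other WT libraries. The level in C2-/- was 33.6% of WT (log2 change -1.57, SE 0.17, adjusted p = 0.000294). Its transcript had the highest GC content of the 61 (60.6%), and the GC-corrected change was 0.16 (adjusted p = 0.514), so the fall is present in the deposited values and absent after the correction, whereas against WT replicate 4 alone it was -1.45 (adjusted p = 0.0135).

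*Eef1a1*, the widely expressed paralog (chromosome 9, 78478453 to 78481724), had values of 8.31, 8.24, 8.27 and 8.19 in WT and of 7.88, 7.83 and 8.05 in C2-/-. The groups did not overlap, but the change of -0.33 (SE 0.14, adjusted p = 0.0708) was not past the threshold, and the GC-corrected one was -0.55 (adjusted p = 0.0148, under the fold minimum). Of the 50-base stretches of the *Eef1a1* transcript, 60.6% also occur in transcripts of other genes, mostly processed copies, so its count depends on how such reads were assigned. *Eef1a2* shared none.

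Of the eEF1B subunits, which exchange GDP for GTP on eEF1A, *Eef1g* fell by 1.12 on the log2 scale (SE 0.14, adjusted p = 0.000424), from 8.58 to 8.78 in WT to between 7.44 and 7.61 in C2-/-. Its GC-corrected change was -0.60 (adjusted p = 0.0132), and 64.3% of its 50-base stretches occur in other genes, mainly Gm4366. *Eef1d* fell by 1.06 (adjusted p = 0.00176), with a GC-corrected change of 0.13. *Eef1b2*, another exchange subunit, rose by 0.74 (adjusted p = 0.0211) and *Eef1e1*, a scaffold of the tRNA synthetase complex, by 0.93 (adjusted p = 0.0496), with GC-corrected changes of 0.35 and 0.30 that were not past the threshold. In WT replicate 4, *Eef1b2* was 0.79 and *Eef1e1* 1.02 log2 units above the mean of the other WT libraries, and neither call held when WT replicate 1, 2 or 3 or C2-/- replicate 1 was left out (nor that of *Eef1e1* without C2-/- replicate 2).

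*Eef2*, the translocase (chromosome 10, 81176631 to 81182509), and *Eef2k*, the kinase that inhibits it, both fell. The values of *Eef2* were 10.78, 10.66, 10.67 and 9.99 in WT and 8.54, 8.25 and 8.85 in C2-/-. The groups were more than 1 log2 unit apart, with WT replicate 4 below the other WT libraries. The change was -1.97 (SE 0.23, adjusted p = 0.000342), which is 25.5% of the WT level, and -0.65 after GC correction (adjusted p = 0.0325).

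*Eef2k* had values of 6.41, 6.94, 6.72 and 6.69 in WT and 5.43, 4.88 and 5.02 in C2-/-. Here WT replicate 4 lay amid the other WT libraries, and all C2-/- values were lower. The change was -1.58 (SE 0.20, adjusted p = 0.000482), with -1.30 after GC correction (adjusted p = 0.00222) and -1.58 against WT replicate 4 alone (adjusted p = 0.0288). *Eef2kmt*, a methyltransferase of eEF2, had a change of -0.37 (adjusted p = 0.359).

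**Figure D3:**
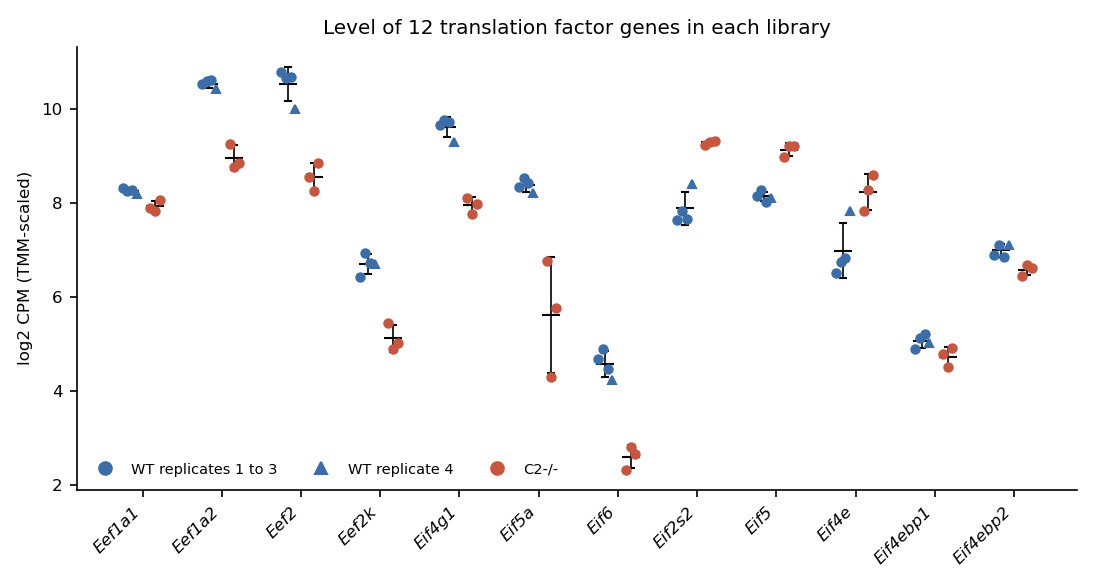
Level (log2 CPM, TMM-scaled) of 12 translation factor genes in each library, with WT in blue (triangle, WT replicate 4) and C2-/- in red, and the mean with the SD as bars (n = 4 and 3). *Eef1a2*, *Eef2*, *Eef2k*, *Eif4g1*, *Eif5a* and *Eif6* are separated downwards, *Eif2s2* and *Eif5* upwards, and the C2-/- values of *Eif5a* run from 4.30 to 6.76.

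Among the 11 cap-binding and helicase genes, 3 rose, 4 fell and 4 were not past the threshold, where 45.2% of all genes were past it. After GC correction 2 were higher and 3 lower, where 20.6% of all genes were past the threshold, and these differences were not tested. With a library left out 3 were higher and 2 to 5 lower (2 without WT replicate 1 or 2). *Eif4g1*, the scaffold of eIF4F (chromosome 16, 20672720 to 20692883), had values of 9.66, 9.75, 9.72 and 9.29 in WT and of 8.11, 7.76 and 7.98 in C2-/-, again without overlap. It fell to 31.7% of WT (-1.66, SE 0.17, adjusted p = 0.000273), with -0.77 after GC correction (adjusted p = 0.00413) and -1.34 against WT replicate 4 (adjusted p = 0.0152).

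The other 2 members of the eIF4G family moved differently. *Eif4g3*, a scaffold paralog, rose by 0.74 (adjusted p = 0.0108) and by 1.19 after GC correction (adjusted p = 0.00694), but by 0.26 against WT replicate 4 (adjusted p = 0.63). *Eif4g2*, which lacks the eIF4E-binding part, had a change of 0.21 (adjusted p = 0.266) and of -0.53 after GC correction.

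*Eif4e*, the cap-binding protein, had values of 6.51, 6.74, 6.82 and 7.83 in WT and of 7.83, 8.27 and 8.59 in C2-/-. It rose by 1.26 (SE 0.30, adjusted p = 0.00805), yet WT replicate 4 and C2-/- replicate 1 had the same value to 2 decimals. The change was 0.23 after GC correction (adjusted p = 0.532) and 0.40 against WT replicate 4 (adjusted p = 0.492).

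*Eif4e3*, a cap-binding relative, had values of 5.84, 5.83, 5.77 and 6.22 in WT and of 6.89, 6.96 and 6.90 in C2-/-, all above WT. It rose by 1.0 (SE 0.17, adjusted p = 0.00157), and by 0.48 after GC correction (adjusted p = 0.0426, under the fold minimum). *Eif4e2*, the third cap-binding gene, fell by 0.67 (adjusted p = 0.0184), with -0.61 after GC correction (adjusted p = 0.0533), and its call was lost without WT replicate 1 or 2 or C2-/- replicate 3.

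*Eif4a1*, a helicase of eIF4F, had values of 6.28, 6.34, 6.23 and 6.01 in WT and of 5.77, 5.41 and 5.67 in C2-/-. It fell by 0.60 (SE 0.17, adjusted p = 0.0192), just past the fold minimum, and by 0.72 after GC correction (adjusted p = 0.0123). That call was lost in 4 of the 7 fits that leave out a library (without WT replicate 1, 2 or 3 or C2-/- replicate 2), and 65.3% of the 50-base stretches of its transcript occur in other genes, chiefly the pseudogene Eif4a-ps4. *Eif4a2*, the helicase paralog with the higher level, had values of 8.70, 8.53, 8.56 and 8.39 in WT and of 8.40, 8.58 and 8.69 in C2-/-. The groups overlapped, with a change of 0.01 (adjusted p = 0.953), and the GC-corrected change was -1.05 (adjusted p = 0.00387).

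*Eif4b*, a cofactor of the helicase, fell by 0.63 (adjusted p = 0.00527), with -0.41 after GC correction. *Eif4h*, a related cofactor, had a change of -0.24 before and 0.86 after the correction (adjusted p = 0.00738). *Eif4a3*, the helicase of the exon junction complex, had -0.71 (adjusted p = 0.0878). In WT replicate 4 it was at 4.02, which is 1.04 below the mean of the other WT libraries and within the C2-/- range (3.73 to 4.33). Without that library the change of *Eif4a3* was -0.97 and past the threshold (adjusted p = 0.00635). It was 0.07 against WT replicate 4 alone and 0.16 after GC correction.

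None of the 4 genes of the 4E-binding group, whose products hold eIF4E away from eIF4G, was past the threshold as deposited. Over the 19 alternatives run, 0 to 1 of them were higher and 0 to 1 lower. *Eif4ebp1* had values of 4.88, 5.11, 5.20 and 5.01 in WT and of 4.77, 4.50 and 4.90 in C2-/-, with a change of -0.32 (SE 0.20, adjusted p = 0.208). *Eif4ebp2* had 6.89, 7.11, 6.85 and 7.09 in WT and 6.44, 6.67 and 6.61 in C2-/-. Its groups did not overlap, but the change of -0.41 (SE 0.15, adjusted p = 0.0491) was under the fold minimum, and it was 0.17 after GC correction. *Eif4ebp3* had -0.46 (adjusted p = 0.448), and 65.5% of its 50-base stretches occur in another transcript, AC115631.1. *Eif4enif1*, an eIF4E shuttling protein, had 0.49 (adjusted p = 0.0723), and 0.70 after GC correction (adjusted p = 0.0385). It was also past the threshold without WT replicate 4 (0.59, adjusted p = 0.0242) and without C2-/- replicate 2 (0.64, adjusted p = 0.0409).

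Of the 9 genes of start codon selection and subunit joining, 4 rose and 1 fell, where 45.2% of all genes were past the threshold. After GC correction 0 were higher and 2 lower, where 20.6% of all genes were past it. Without C2-/- replicate 2 only 2 were higher in the deposited values. *Eif5*, which triggers GTP hydrolysis by eIF2 at the start codon, had values of 8.15, 8.26, 8.02 and 8.11 in WT and of 8.97, 9.20 and 9.21 in C2-/-. WT replicate 4 lay between the other WT libraries, and all C2-/- values lay above them. It rose 1.99-fold (0.99, SE 0.14, adjusted p = 0.000876) and by 1.02 against WT replicate 4 (adjusted p = 0.0464), the only member higher there, but the change was 0.08 after GC correction (adjusted p = 0.712).

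*Eif2a*, an alternative initiation factor, had values of 5.73, 5.90, 5.73 and 6.55 in WT and of 6.92, 6.93 and 7.70 in C2-/-, with no overlap. It rose by 1.21 (SE 0.26, adjusted p = 0.00499), with 0.52 after GC correction (adjusted p = 0.124). *Eif5b*, the GTPase of subunit joining, rose by 1.37 (adjusted p = 0.012), but its value in WT replicate 4 (9.24) was 1.47 above the mean of the other WT libraries and above that of C2-/- replicate 3 (9.04), and the call was lost without C2-/- replicate 2. *Eif1a*, which opens the ribosome for scanning, rose by 0.78 (adjusted p = 0.0382), with -0.31 after GC correction, and the call was lost in 5 of the 7 fits that leave out a library (WT replicate 1, 2 or 3 or C2-/- replicate 1 or 2).

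*Eif2d*, which can deliver initiator tRNA without eIF2, fell by 1.32 (adjusted p = 0.00226) and by 0.76 after GC correction (adjusted p = 0.0266). *Eif1ax*, the X-linked copy of eIF1A, had a change of 0.19 before and -0.92 after the correction (adjusted p = 0.0167). *Eif1*, the start codon fidelity factor, had -0.22, its paralog *Eif1b* 0.59 and *Eif1ad* -0.52, and none of them passed the test in either fit. In WT replicate 4 *Eif1b* was at 6.29, which is 1.75 above the mean of the other WT libraries. Its C2-/- values were lower, at 5.43 to 5.64. The change of *Eif1b* was 1.42 after GC correction (adjusted p = 0.0555) and -0.72 against WT replicate 4 alone. Without WT replicate 4 it was 1.03 and past the threshold (adjusted p = 0.00104).

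The 9 genes of eIF2, the carrier of the initiator tRNA, and of eIF2B, its exchange factor, were split between rises and falls. The *Eif2s2* gene, of the beta subunit of eIF2 (chromosome 2, 154871410 to 154892906), had values of 7.64, 7.82, 7.66 and 8.39 in WT and of 9.23, 9.30 and 9.32 in C2-/-, all above WT. It had the largest rise of the 61, to 2.65-fold (1.41, SE 0.20, adjusted p = 0.000709), and a change of 0.55 after GC correction (adjusted p = 0.028, under the fold minimum). For the transcript of *Eif2s2*, 27.8% of the 50-base stretches occur in Gm9892. *Eif2s1*, the alpha subunit, had values of 5.40, 5.40, 5.28 and 5.44 in WT and of 5.67, 5.18 and 5.95 in C2-/-. Its groups overlapped, with a change of 0.22 (SE 0.21, adjusted p = 0.41), and -0.78 after GC correction (adjusted p = 0.0293).

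The gamma subunit of eIF2 is encoded by *Eif2s3x* on the X chromosome and *Eif2s3y* on the Y chromosome, and in these male mice the pair moved in opposite directions. *Eif2s3y* had values of 5.79, 5.89, 5.71 and 6.50 in WT and of 6.93, 7.08 and 7.21 in C2-/-, and rose by 1.10 (SE 0.21, adjusted p = 0.00279). *Eif2s3x* had 5.58, 5.72, 5.51 and 6.35 in WT and 4.72, 4.38 and 5.23 in C2-/-, and fell by 1.01 (SE 0.27, adjusted p = 0.0129). After GC correction *Eif2s3y* had -0.04 (adjusted p = 0.885) and *Eif2s3x* -1.65 (adjusted p = 0.00253). In WT replicate 4 both were above the other WT libraries, by 0.70 and 0.75. For *Eif2s3x*, 36.2% of the 50-base stretches occur in Gm2223, and *Eif2s3y* shared none.

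Of the 5 eIF2B genes, 3 fell. *Eif2b5*, the catalytic subunit, had values of 6.18, 6.16, 6.09 and 5.63 in WT and of 4.94, 4.53 and 5.64 in C2-/-, so that C2-/- replicate 3 lay just above WT replicate 4. It fell by 0.98 (SE 0.27, adjusted p = 0.0149), the call was lost without C2-/- replicate 2, and the change was -0.26 after GC correction (adjusted p = 0.487). *Eif2b2* fell by 1.37 (adjusted p = 0.0197), with -0.34 after GC correction. Its value in C2-/- replicate 2 was 2.63 (16 reads), compared with 4.38 and 4.50 in the other C2-/- libraries, and without that library the change was -0.77 (adjusted p = 0.0139). *Eif2b4* fell by 0.82 (adjusted p = 0.0241), with 0.48 after GC correction, but its groups overlapped and the call was lost in 5 of the 7 fits that leave out a library (WT replicate 1, 2 or 3 or C2-/- replicate 2 or 3). *Eif2b1* and *Eif2b3* had -0.31 and -0.53, not past the threshold.

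The 4 kinases that phosphorylate the alpha subunit of eIF2 under stress had changes of 0.30 to 0.83, and none was past the threshold with or without GC correction. *Eif2ak1*, the heme-regulated kinase, had values of 5.68, 5.83, 5.87 and 5.67 in WT and of 6.39, 6.34 and 6.13 in C2-/-, without overlap (0.53, SE 0.16, adjusted p = 0.0239, under the fold minimum). *Eif2ak2*, activated by double-stranded RNA, had 3.36, 3.29, 2.97 and 2.70 in WT and 3.94, 4.30 and 3.50 in C2-/-, also without overlap (0.83, SE 0.32, adjusted p = 0.0563). *Eif2ak1* and *Eif2ak2* were past the threshold without C2-/- replicate 3 and with median centring. *Eif2ak2* was also past it with no variance trend, with quantile normalization, with 2 added reads and with a mean log2 filter of 3 (adjusted p of 0.0185 to 0.0467), so its place just short of the threshold depends on the processing.

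*Eif2ak3*, the kinase of the endoplasmic reticulum, had 2.32, 2.46, 2.35 and 1.82 in WT and 2.89, 2.34 and 2.40 in C2-/- (0.30, SE 0.38, adjusted p = 0.529), with overlap. *Eif2ak4*, which senses uncharged tRNA, had 3.14, 3.11, 3.0 and 2.54 in WT and 3.44, 3.51 and 3.67 in C2-/- (0.59, SE 0.31, adjusted p = 0.133), without overlap. Per length, *Eif2ak2*, *Eif2ak3* and *Eif2ak4* were among the 4 lowest of the 61 genes in both groups, so the depth limits what their values can show.

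The 12 eIF3 subunit genes, whose products form 1 large complex on the small ribosomal subunit, did not move together. *Eif3a* and *Eif3e* each rose by 0.84 and *Eif3m* by 1.15, *Eif3b* fell by 1.02, *Eif3d* by 0.68, *Eif3f* by 0.69 and *Eif3k* by 0.77, and the other 5 had changes of -0.38 to -0.00. With a library left out 1 to 3 of the 12 were higher (1 without C2-/- replicate 3) and 2 to 5 lower (2 without WT replicate 2). The calls of *Eif3e* and *Eif3f* were lost in 4 of the 7 such fits, that of *Eif3d* in 2 and that of *Eif3m* in 1, and those of *Eif3a*, *Eif3b* and *Eif3k* in none. The 3 that rose had the lowest GC contents of the 12 (40.3 to 44.5%). *Eif3a*, the largest subunit, had values of 7.39, 7.43, 7.20 and 7.76 in WT and of 8.02, 8.48 and 8.35 in C2-/-, all above WT (SE 0.18, adjusted p = 0.00485), and 0.25 after GC correction (adjusted p = 0.263).

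After GC correction none of these 7 was past the threshold, and 4 of them had the opposite sign, namely *Eif3b* (0.14), *Eif3d* (0.28), *Eif3k* (0.07) and *Eif3e* (-0.21). *Eif3g*, at -0.16 before it, was higher by 0.98 (adjusted p = 0.0132). The values of *Eif3e* and *Eif3m* in WT replicate 4 (8.05 and 7.29) lay above the lowest C2-/- values (7.95 and 7.16). Of the 50-base stretches of the transcript, 40.0% for *Eif3m*, 26.2% for *Eif3h* and 22.0% for *Eif3e* occur in other genes.

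**Figure D4:**
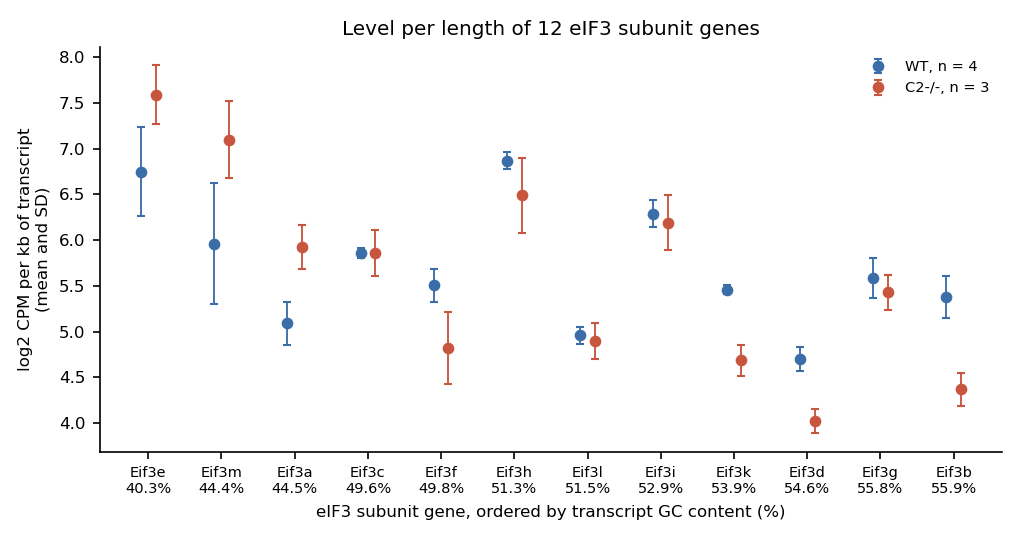
Level per length (log2 CPM per kb of transcript, mean and SD, n = 4 and 3) of the 12 eIF3 subunit genes, ordered by the GC content of the transcript. C2-/- (red) lies above WT (blue) in the 3 genes at the left, of 40.3 to 44.5% GC, and below it in *Eif3f*, *Eif3k*, *Eif3d* and *Eif3b* farther right.

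*Eif5a*, which relieves ribosome stalling and carries the amino acid hypusine (chromosome 11, 69916712 to 69921958), had the largest fall of the 61. Its values were 8.33, 8.52, 8.42 and 8.20 in WT and 6.76, 4.30 and 5.76 in C2-/-. The WT libraries lay close together (SD 0.13), the C2-/- libraries were spread widely (SD 1.24), and the groups did not overlap. The level fell to 14.8% of WT (-2.76, SE 0.44, adjusted p = 0.00128), with -1.74 after GC correction (adjusted p = 0.00955) and -2.60 against WT replicate 4 (adjusted p = 0.0194). Without C2-/- replicate 2, its lowest library, the change was -2.11.

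*Eif5a2*, its paralog, had 0.55, 0.23, 0.61 and 3.94 in WT and 1.98, 0.75 and 2.40 in C2-/-. WT replicate 4 was 3.48 above the mean of the other WT libraries, and the change of 0.38 had an adjusted p of 0.743. That change rests on this library: it was 1.25 without WT replicate 4 (adjusted p = 0.106), -2.23 against WT replicate 4 alone (adjusted p = 0.245) and -0.83 after GC correction (adjusted p = 0.504). *Eif6*, which keeps ribosomal subunits apart, had values of 4.68, 4.88, 4.47 and 4.23 in WT and of 2.32, 2.79 and 2.66 in C2-/-, without overlap. It fell to 25.5% of WT (-1.97, SE 0.28, adjusted p = 0.000793), with -0.54 after GC correction (adjusted p = 0.251) and -1.64 against WT replicate 4 (adjusted p = 0.261).

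The balance between paralogs was compared within each library, where the scaling of the library cancels. For 8 pairs the difference of log2 values was tested by exact permutation (two-sided, all 35 ways to divide the libraries into 4 and 3). This test cannot give a p below 0.02857. As deposited, the pairs at that p had 0.0457 after adjustment over the 8 pairs, a value that depends on how many pairs reach it. The exact p-values below are unadjusted, and those of the GC-corrected values were not adjusted over the pairs. *Eef1a2* minus *Eef1a1* was 2.28 ± 0.08 (SD, n = 4) in WT and 1.04 ± 0.30 (SD, n = 3) in C2-/- (exact p = 0.02857), so the difference was lower by 1.24. Per length, *Eef1a2* was 80.7% ± 0.853 of the sum of both in WT and 63.8% ± 4.75 in C2-/-. After GC correction the difference moved the other way, by 0.71 (exact p = 0.05714).

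*Eif2s3x* minus *Eif2s3y* was -0.18 ± 0.03 (SD, n = 4) in WT, with replicate 4 (-0.15) the highest of the 4 and the others at -0.21 to -0.17, and -2.30 ± 0.37 (SD, n = 3) in C2-/- (exact p = 0.02857). The difference between the groups was -2.11 as deposited, -1.61 after GC correction (exact p = 0.02857) and -2.15 against WT replicate 4. Per length, *Eif2s3x* made up 30.7% ± 0.407 of the pair in WT and 9.44% ± 2.09 in C2-/-. Of the 8 pairs it had the smallest spread in WT.

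*Eif4g1* minus *Eif4g3* changed by -2.39 (from 1.74 ± 0.53 to -0.65 ± 0.29, exact p = 0.02857), and by -1.97 after GC correction (exact p = 0.02857). WT replicate 4 (0.94) stood between the other WT libraries (1.96 to 2.05) and C2-/- (-0.97 to -0.39). *Eif4g1* minus *Eif4g2* changed by -1.86 (exact p = 0.02857), of which -0.25 was left after GC correction (exact p = 0.02857). *Eif4a1* minus *Eif4a2* changed by -0.61 (exact p = 0.02857) and by 0.33 after the correction (exact p = 0.05714).

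The other 3 pairs did not pass the test. *Eif4ebp1* minus *Eif4ebp2* differed by 0.09 between the groups (exact p = 0.6286), and by -0.61 after GC correction (exact p = 0.08571). *Eif5a* minus *Eif5a2* differed by -3.14 (exact p = 0.08571), and by -0.91 after GC correction (exact p = 0.3429). *Eif1* minus *Eif1b* differed by -0.81 (exact p = 0.2286), and by -1.31 after GC correction (exact p = 0.1429). In both WT replicate 4 lay inside or below the range of the C2-/- libraries.

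**Figure D5:**
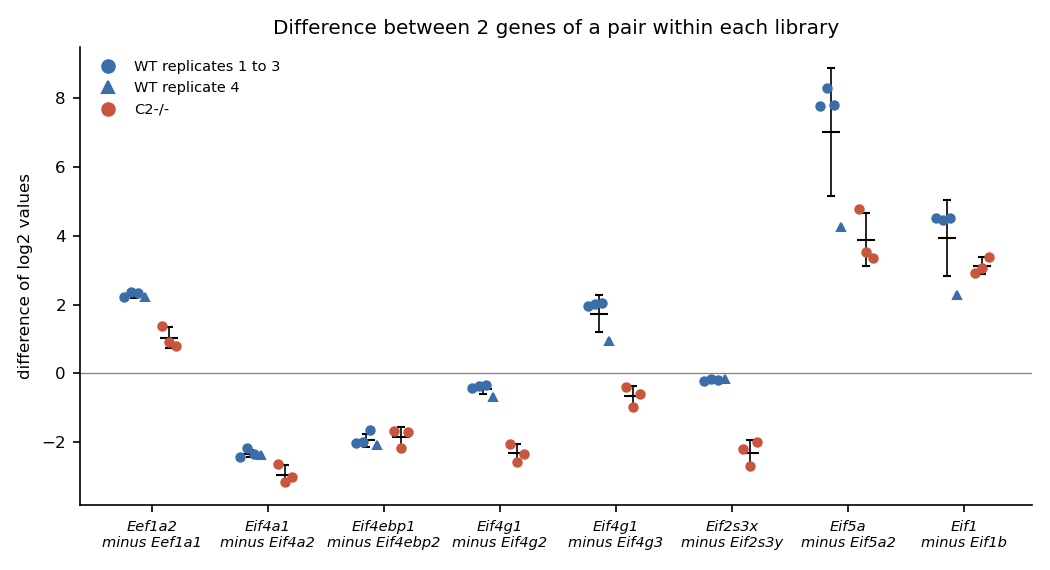
Difference of log2 values between the genes of 8 pairs within each library, WT in blue (triangle, WT replicate 4) and C2-/- in red, with the mean and the SD as bars (n = 4 and 3). *Eif2s3x* minus *Eif2s3y* lies at -0.21 to -0.15 in all 4 WT libraries and at -2.70 to -1.98 in C2-/-, whereas for *Eif5a* minus *Eif5a2* and *Eif1* minus *Eif1b* WT replicate 4 lies at 4.26 and 2.28, apart from the other WT libraries.

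Per length of transcript (log2 CPM per kb, mean, without GC correction), the order of levels at the top differed between the groups. In WT it began with *Eef1a2* (9.47), *Eef2* (8.90), *Eif1* (8.52), *Eif5a* (7.84) and *Eef1g* (7.76). In C2-/- it began with *Eif1* (8.30), *Eif2s2* (7.94), *Eef1a2* (7.90) and *Eif3e* (7.59). *Eif2s2* was 12th in WT, and *Eef2* was 10th, *Eef1g* 11th and *Eif5a* 27th in C2-/-. Neighbours in these orders often lie closer than their SDs, for example *Eif2s2* and *Eef1a2* in C2-/-, and the order of levels was not tested. After GC correction the changes of *Eef1a2* (0.16), *Eif2s2* (0.55) and *Eif3e* (-0.21) were not past the threshold. Those of *Eef2* (-0.65), *Eef1g* (-0.6) and *Eif5a* (-1.74) were past it, each lower. The part of GC content in these orders was not tested. Of the stretches of the *Eif1* transcript searched for exact matches, 31.6% also occur among 18 other genes.

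Genes that work with these factors were counted on 5 lists, with 68 of 70 genes measured (Gspt2 and Mars1 were not analysed here). In all 13 rose and 21 fell, so 34 of 68 were past the threshold, where 45.2% of all genes were. After GC correction 5 were higher and 7 lower, 17.6% where 20.6% of all genes were. Both shares are near those of all genes, and the differences were not tested. Of these 34 genes, 25 stayed past the threshold in all 7 fits that leave out a library. The median log2 change was -0.47 over the lists, compared with -0.14 over all genes. The counts in each list carry the same dependence on GC content as those of the members.

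Of 19 release, recycling and accessory genes, 6 rose and 6 fell. *Etf1* (0.96) and *Gspt1* (0.69), the release factors, *Abce1* (1.06), which recycles ribosomes, and *Denr* (1.0) and *Mcts1* (1.5), which form a complex that resembles eIF2D, rose, and none of these 5 was past the threshold after GC correction. *Paip2*, an inhibitor of poly(A)-binding protein, rose by 2.26 (adjusted p = 0.000481) and by 1.20 after the correction, whereas its paralog *Paip2b* fell by 1.76 (adjusted p = 0.00103), with -2.12 after it. *Dohh*, which completes hypusine on eIF5A, had 440, 472, 479 and 47 reads in WT and 7, 0 and 6 in C2-/-. It fell (adjusted p = 0.00161), but the size of the change rests on few reads and on the value given to 0 reads. It was -4.76 with the 0.5 reads that the deposited values add, -3.92 with 2 reads added, -3.66 without C2-/- replicate 2, the library at 0, -5.55 without C2-/- replicate 1, and -2.85 after GC correction. Against WT replicate 4 alone it was -3.64 and not past the threshold (adjusted p = 0.23). *Dhps*, the enzyme of the first hypusine step, had -0.67 (adjusted p = 0.108).

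Of 21 cytosolic tRNA synthetase and scaffold genes, 9 fell and 2 rose. *Vars* (-1.57), *Yars* (-1.5), *Wars* (-1.29) and *Sars* (-1.26) were among those that fell, and after GC correction *Lars* (-0.97) and *Yars* (-0.84) were still lower, while *Vars* had 0.19. *Dars* rose by 1.06 and *Iars* by 0.60, with 0.11 and 0.51 after GC correction, neither past the threshold. The call of *Iars* was lost in 5 of the 7 fits that leave out a library. The number that fell was 6 without WT replicate 2.

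Of 10 mitochondrial translation factors, *Tufm*, the mitochondrial counterpart of eEF1A, fell by 2.79 (adjusted p = 0.000302; -1.63 after GC correction), and *Mtrf1l*, a mitochondrial release factor, rose by 2.32 (adjusted p = 0.00077; 2.08 after the correction). *Guf1* rose by 0.83 (0.0 after the correction), and the other 7 were not past the threshold as deposited. Without WT replicate 4 the list had 4 higher and 1 lower, and without C2-/- replicate 1 it had 2 higher and 3 lower.

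Of 10 genes of the integrated stress response, which follows phosphorylation of eIF2 alpha, 0 rose and 3 fell. With a library left out 1 to 4 were lower (1 without WT replicate 1, 2 or 3 or C2-/- replicate 2). *Atf4*, the transcription factor at the head of that response, had -0.19 (adjusted p = 0.278), and 0.69 after GC correction, the only gene of the list past the threshold then. *Chac1*, which degrades glutathione, fell by 1.65 and stayed past the threshold in all 7 such fits, with -0.27 after GC correction. *Atf5*, another transcription factor, fell by 1.45, but its groups overlapped, the call was lost in 5 of the 7 fits, and the GC-corrected change was 0.39. *Asns*, asparagine synthetase, had 20, 20, 19 and 19 reads in WT and 3, 0 and 0 in C2-/-. Its change of -2.65 (adjusted p = 0.0425) is set largely by the value given to 0 reads: it was -1.25 with 2 reads added (adjusted p = 0.121), and the call was lost in 6 of the 7 fits. The 4 kinases above and this list were measured as transcripts only, and phosphorylation was not measured.

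Of 8 regulators of cap binding, 3 rose and 2 fell. *Mknk2*, a kinase of eIF4E, fell by 1.82 (adjusted p = 0.000294), with -0.10 after GC correction. *Rps6kb2*, an S6 kinase gene, fell by 1.69, with -0.57 after the correction (adjusted p = 0.207). *Rps6kb1*, the other S6 kinase gene, rose by 1.36 (adjusted p = 0.000696, with 0.19 after the correction). *Pdcd4*, an inhibitor of eIF4A, rose by 1.03 (0.29 after the correction) and *Larp4* by 0.66. The call of *Larp4* was lost in 5 of the 7 fits that leave out a library, and its GC-corrected change had the opposite sign (-0.56, under the fold minimum). After GC correction *Mknk1* (1.0) and *Larp1* (1.55) were higher.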

How the data were processed

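TA muscle RNA from 4 WT and 3 C2-/- mice was enriched with oligo(dT) and sequenced from DNA nanoballs. The design text states 4 mice per group, and 3 C2-/- samples were analysed here. Per the labels and the study's methods, the authors aligned reads with HISAT to GRCm38.p6, counted them per gene with featureCounts 1.5.2 (strand use not given in the sources used here), scaled them by edgeR's TMM and deposited log2 values. The reads behind each value were recovered (0.5 had been added, 100% whole within 0.001 reads). A second deposited table holds the authors' own comparison (fold change, average level, t, p, adjusted p, log-odds) and was not used.

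limma 3.58.1 (R 4.3.3; lmFit, eBayes with trend) was fitted to the log2 values as deposited, over 12239 genes and 7 libraries. GC content and length came from the longest protein-coding transcript (GENCODE, GRCm38; 12181 genes), and each library was corrected for GC content by its own natural spline (5 degrees of freedom). Positions are from RefSeq on GRCm38.p6. Stretches shared with other genes were exact 50-base matches between transcripts. Permutation tests went through all splits in Python 3.11.15 with numpy 2.4.6, and Spearman's rho came from scipy 1.17.1. Values in every library are given for 24 members: 19 listed ones (*Eif3j1*, also listed, was not analysed here), and the 6 largest rises and 6 largest falls among members past the threshold without overlap whose higher group averaged 3 or more on the log2 scale, some of them on both lists. Values of *Eif2s3x* and *Eif5a2* are given for their pairs. Members, lists and tests were chosen with earlier results of these data known. The fit was tested on simulated data. Alternatives are given at the end.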

Additional observations from a re-analysis of the deposited data

Results flagged for a closer look

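The 4 WT values of 24 named members and 8 paralog differences were tested for a library far from the others (Dixon's ratio of the gap to the nearest library over the whole range, at its 95% critical value). Of these 32 values, 6 were past that limit, where chance gives about 1.6, and in all 6 the library was WT replicate 4. It was at 9.99 for *Eef2* (others 10.66 to 10.78), 5.63 for *Eif2b5* (6.09 to 6.18) and 6.22 for *Eif4e3* (5.77 to 5.84). It was at 0.94 for *Eif4g1* minus *Eif4g3* (1.96 to 2.05), 4.26 for *Eif5a* minus *Eif5a2* (7.78 to 8.29) and 2.28 for *Eif1* minus *Eif1b* (4.46 to 4.53). In each of the 6, WT replicate 4 lay on the side of the C2-/- libraries. Values of 1 library are not independent of each other.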

How the results depend on the processing

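Depth limits the genes of low level most, and 3 of the 4 WT libraries were deeper than any C2-/- library. The numbers of members past the threshold (14 higher, 20 lower) stayed within 1.5 times under voom, no variance trend, quantile normalization, median centring, 2 added reads, a mean log2 filter of 3 and no fold minimum. They were 7 and 12 at an adjusted p under 0.01, 4 and 11 with the GC correction, and 1 and 7 against WT replicate 4 alone. All genes past the threshold then numbered 3216, 2509 and 554 (5528 as reported), and pathway genes 8 higher at the stricter p, 5 higher and 7 lower with the GC correction, and 2 higher and 3 lower against WT replicate 4. Leaving out each library gave 10 to 16 higher and 15 to 21 lower members, 4095 to 6136 genes, and 11 to 17 higher and 14 to 24 lower pathway genes. Of the 34 members past the threshold, 22 stayed past it in all 7 such fits and 12 did not, and 6 others were past it in at least 1.

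Replicate numbers did not pair the samples: same-numbered WT and C2-/- libraries had deviations with r of 0.053, -0.064 and -0.053, and not every library correlated best with its own number. With the replicate block 15 members were higher and 21 lower. The replicate block with the GC correction gave 10 higher, 13 lower, 2917 genes, and 7 higher and 8 lower pathway genes.

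Among the named members, the GC correction and the replicate block with it reversed *Eef1a2* (0.16, 0.26), *Eif2s1* (-0.78, -0.84) and *Eif4a2* (-1.05, -1.19). Only members past the threshold in at least 1 of the fits compared are named so, and over all 61 members the GC correction turned the sign of 24. The GC correction alone reversed *Eif2s3y* (-0.04), and the block with it *Eif5* (-0.00). Both reversed the paralog changes of *Eef1a2* minus *Eef1a1* (0.71, 0.84) and *Eif4a1* minus *Eif4a2* (0.33, 0.40). The block with the correction also moved *Eif4ebp1* minus *Eif4ebp2* (-0.71), *Eif4g1* minus *Eif4g2* (-0.19), *Eif2s3x* minus *Eif2s3y* (-1.56) and *Eif1* minus *Eif1b* (-1.90). Against WT replicate 4 alone, *Eif4g1* minus *Eif4g2* was -1.63, *Eif4g1* minus *Eif4g3* -1.60, *Eif5a* minus *Eif5a2* -0.37 and *Eif1* minus *Eif1b* 0.86. The cause was not tested. Without WT replicate 4, *Eif1* minus *Eif1b* was -1.37. Leaving out each library gave ranges of -1.41 to -1.13 (*Eef1a2* minus *Eef1a1*), -0.76 to -0.49 (*Eif4a1* minus *Eif4a2*), -0.00 to 0.25 (*Eif4ebp1* minus *Eif4ebp2*), -2.0 to -1.73 (*Eif4g1* minus *Eif4g2*), -2.66 to -2.24 (*Eif4g1* minus *Eif4g3*), -2.27 to -1.91 (*Eif2s3x* minus *Eif2s3y*), -4.07 to -2.72 (*Eif5a* minus *Eif5a2*) and -1.37 to -0.62 (*Eif1* minus *Eif1b*). Of 15 named members past the threshold, 4 (*Eef2*, *Eef2k*, *Eif4g1* and *Eif5a*) stayed past it in the same direction under every alternative run. A quasi-likelihood count test was planned and not run, and the recovered reads were fitted with voom only.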
